A study of Saccharomyces cerevisiae with 2 samples.

Results

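Nuclear tRNA genes of budding yeast and the 500 bp on either side of each were described by the intervals of a deposited peak list from DRIP-seq, in which DNA is immunoprecipitated with S9.6, a monoclonal that binds RNA:DNA hybrids. The members were all nuclear genes with the biotype tRNA in RefSeq's gene table for assembly R64, the sequence also called sacCer3. There were 275 of them among 6431 nuclear genes, on all 16 nuclear chromosomes, and they were 71 to 133 bp long with a median of 73 bp. The strand came from the systematic name, with 143 genes named W (forward) and 132 named C (reverse). Asynchronous cells of the strain WRBb-9D were grown to mid-log phase in YPAD at 30 °C. The series holds 1 S9.6 immunoprecipitate, which gave the peaks, and 1 input, whose values were not analysed here. Both came from the same MATa genotype, with the markers trp1-1, leu2-3,112, his3-11,15, ade2-1 and can1-100, the deletion bar1-delta, the tagged helicase gene RRM3::FLAG::KAN and the cassette ura3::URA3/GPD-Tk(7x). The labels call it wild type, and no group without hybrids, such as a sample treated with RNase H, was analysed here.

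RNA polymerase III transcribes tRNA genes from promoter elements that lie inside the gene, so the transcribed unit is short and can be read at a high rate. Such units are known in yeast as places where RNA:DNA hybrids can form behind the polymerase and where replication forks slow down. Several of them attract Ty retrotransposons, and Ty1 elements in particular insert upstream of genes read by RNA polymerase III. Many tRNA genes are near-identical copies of each other, and some families carry a short intron that makes the gene longer than its mature RNA.

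The peak list was the sole measurement, so each value below describes 1 library and no p-value is given. A tRNA gene was called covered where peaks held 50% or more of its bases, and touched where they held 1 bp or more. Intervals on shares of genes are exact (Clopper-Pearson) at 95%. They take in counting error alone and treat genes as separate, although copies of a family can share reads. The read depth is unknown. Nuclear peaks numbered 1687, with medians of 24 for the score and 325 bp for the width. The score is the authors' value on an unstated scale and was used only to rank peaks within the list.

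Of the 275 tRNA genes, 82 were covered (29.8%, 95% interval 24.5 to 35.6). The same rule covered 5.82% of all nuclear genes, 4.42% of protein-coding genes (3.58% without Ty ORFs, the coding frames of retrotransposons) and 25% of snoRNA genes. It covered 7.37% of all nuclear windows of 73 bp, the median length of a tRNA gene. The values of single genes lay mostly at the extremes: 184 tRNA genes had 0% of their length inside peaks, 71 had 100%, and 20 lay in between. No nuclear peak is under 200 bp, so genes this short would lie mostly wholly inside or outside peaks at any place. Touched genes numbered 91 (33.1%), against 21.8% of all nuclear genes, most of which are longer, and 8.38% of the windows. The share touched among snoRNA genes was 32.9%, close to that of the tRNA genes. The genes just above the threshold were YNCD0017W (51.1% inside), YNCD0029C (52.1%) and YNCD0016C (62.5%), and those just below it were YNCP0001C (46.2%), YNCK0011C (43.2%) and YNCL0004C (41.1%).

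The 184 untouched genes were not all far from a peak. A peak reached the upstream flank alone in 45 of them, the downstream flank alone in 30, and both flanks in 12. The remaining 97 genes had no peak base in the gene or within 500 bp on either side. Peaks that touched a tRNA gene numbered 88, and a further 122 nuclear peaks reached a flank without touching the gene.

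Peaks over tRNA genes stood high in the list. Scores of these 88 peaks ran from 15 to 252 with a median of 49, and 43 of them scored 50 or more, against 220 of all 1687 nuclear peaks. Of the 628 nuclear peaks with scores from 13 to 19, 1 touched a tRNA gene (0.159%). The share was 3.34% of 479 peaks scoring 20 to 29 and 7.78% of 360 peaks scoring 30 to 49. It was 18.3% of 164 peaks scoring 50 to 99 and 23.2% of 56 peaks scoring 100 or more. In the highest class, 30 peaks touched none of the 75 open reading frames (ORFs) of Ty elements defined below. Of these 30, 10 touched a tRNA gene (33.3%). Among those 10, the peaks over YNCD0020W, YNCL0035C and TGA1 touch a frame of a wider Ty set, which adds single frames of Ty length. Peaks of higher score were also wider, with median widths of 250 bp in the lowest class and 2250 bp in the highest, and a wider peak meets more genes. How much of the rise comes from width was not tested.

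**Figure D1:**
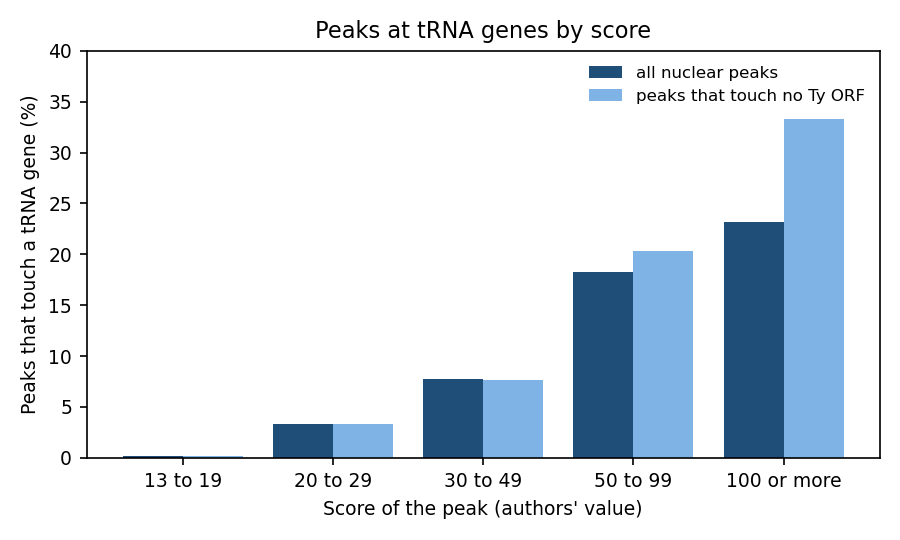
Share of nuclear peaks that touch a tRNA gene (percent, vertical axis) by the authors' score of the peak (horizontal axis), for all nuclear peaks and for those that touch none of the 75 Ty ORFs of the main set. The share goes from 0.159% at scores 13 to 19 to 23.2% at 100 or more, and to 33.3% without peaks on those 75 ORFs. Some peaks of the latter group touch a Ty ORF of the wider set.

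Cover reached well beyond the genes. Of the bases in the 500 bp flanks, 32.1% lay inside peaks, against 28.8% of the bases of the genes themselves and 7.37% of the nuclear genome. The upstream flanks had 32.5% and the downstream flanks 31.7% of their bases inside peaks. The difference was 0.841 percentage points. It was 0.197 points (28.9% and 28.7%) for the 234 tRNA genes more than 5 kb from a Ty ORF, and its sign changed between alternatives. Genes on the forward and the reverse strand were covered alike in number, with 42 of 143 (29.4%) and 40 of 132 (30.3%).

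Among the covered genes more than 5 kb from a Ty ORF, 64 genes lay under 61 peaks. The peak reached a median of 285 bp beyond the gene on the upstream side and 440.5 bp on the downstream side, and it reached further downstream in 42 of the 64. The summit lay within 100 bp of the middle of the gene in 21 of them, upstream of the middle in 28 and downstream in 36. In the other 43 the summit of the peak lay more than 100 bp from the middle of the gene. Peaks over 41 of these 64 genes also touched a protein-coding gene other than a Ty ORF, so cover of the tRNA gene and of its neighbour cannot be told apart there.

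**Figure D2:**
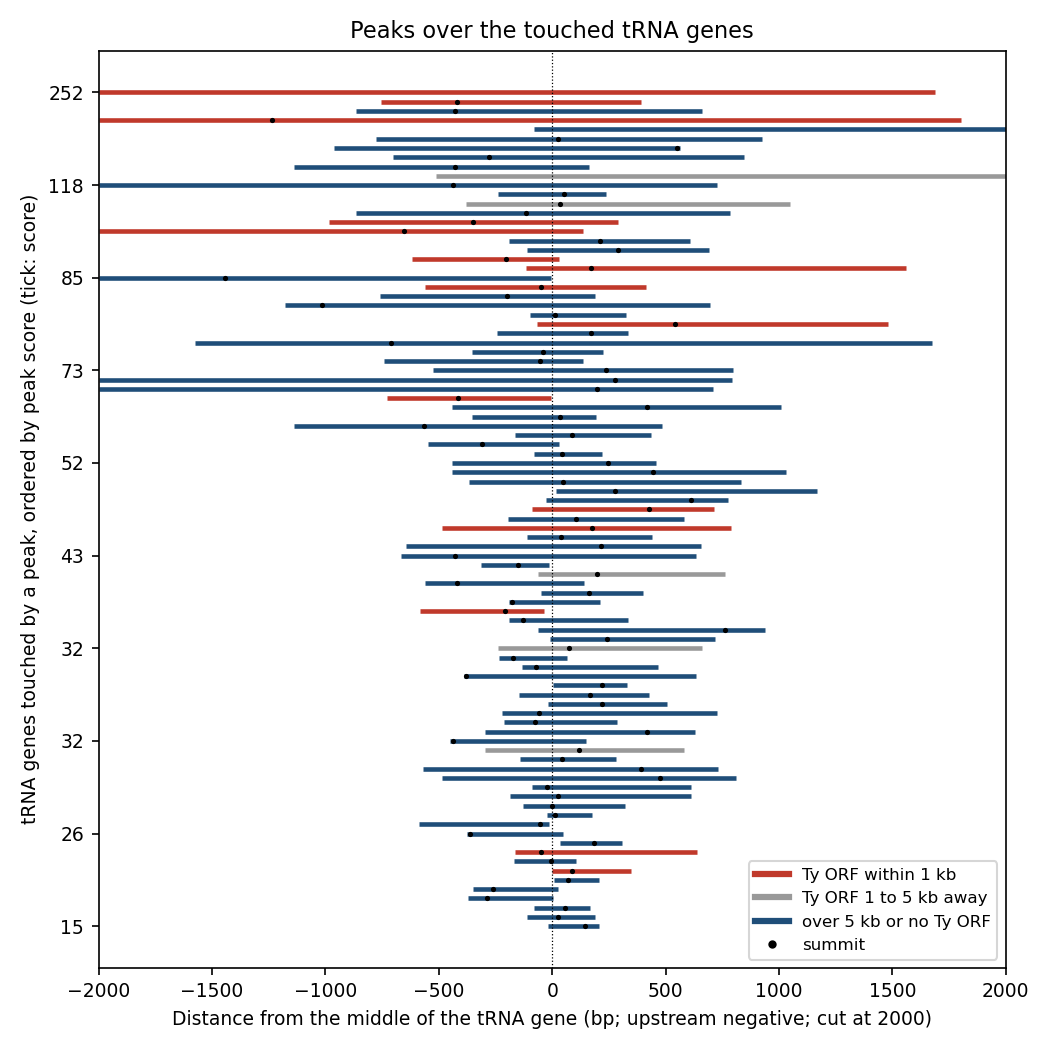
Each line is the highest-scoring peak over 1 of the 91 touched tRNA genes, drawn in bp from the middle of the gene with upstream to the left and cut at 2000 bp, and ordered by peak score on the vertical axis; dots are summits, and red, grey and blue mark a Ty ORF within 1 kb, at 1 to 5 kb and further away or absent. The gene lies wholly inside its peak in 71 of the 91.

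Ty elements lie beside a part of the tRNA genes and had to be set apart. The gene table does not describe Ty ORFs in words. They were taken as 38 unnamed ORFs of Ty length whose exact length recurs in another such ORF, with the shorter frames that begin with them, 75 entries in all. A long Ty ORF whose exact length does not recur is missed by this rule. All positions are those of the reference assembly. Whether each Ty ORF lies there in the strain WRBb-9D, or others lie elsewhere, was not examined. Distances to a Ty ORF are to these 75 unless the wider set is named. Of the 28 tRNA genes with such an ORF within 1 kb, 27 had it on the upstream side, at distances from 386 to 977 bp over all 28. YNCM0022C, on chromosome XIII (379303 to 379408), was the exception with a Ty ORF downstream.

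Covered genes numbered 13 of the 28 with a Ty ORF within 1 kb (46.4%, interval 27.5 to 66.1), 5 of 13 at 1 to 5 kb (38.5%), 4 of 15 at 5 to 20 kb (26.7%) and 60 of 219 further away or on a chromosome with no such ORF (27.4%, interval 21.6 to 33.8). The intervals of the nearest and the farthest class overlap. Windows of 73 bp within 1 kb of a Ty ORF but outside it were at least 50% inside peaks in 47.7% of cases, and in 42.6% where they also lay more than 1 kb from any tRNA gene. The tRNA genes beside Ty ORFs were thus covered about as often as the Ty flanks without a tRNA gene. Leaving out the peaks that touch a Ty ORF, 6 of the 28 were covered (21.4%), while the 64 of 234 more than 5 kb away (27.4%) did not change. Such a filter can only lower cover and can hardly reach genes that far away. The direction of both outcomes was therefore largely set in advance. In the wider Ty set, peaks over 4 of the 64 genes touch a Ty ORF. With 200 bp around each summit in place of whole peaks, 4 of the 28 and 31 of the 234 were touched. Of all windows more than 5 kb from a Ty ORF, 5.64% were covered, and of those that also lay outside genes 7.83%.

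The flanks of the 28 genes were uneven. Upstream, where the Ty element lies, 66.8% of bases were inside peaks, and downstream 49.2%. In bins of 100 bp the upstream value rose to 78.8% at 301 to 400 bp, fell to 48.4% at 901 to 1000 bp and reached 89.3% at 1601 to 1700 bp, past the near end of the Ty ORF in 27 of the 28. Peaks had scores from 24 to 252 over the 13 covered genes of this class, with a median of 86, against 15 to 184 and a median of 47.5 over the 64 covered genes more than 5 kb away.

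The highest score beside a Ty ORF was 252, over YNCG0022W on chromosome VII (541850 to 541921), whose upstream and downstream flanks were both 100% inside peaks. SUF7, a proline tRNA gene on chromosome XIII (196068 to 196170), followed with a score of 215 and flanks of 100% upstream and 68.4% downstream. YNCG0025C on chromosome VII (561662 to 561743) lay under a peak of 7750 bp with a score of 166, and SUP53, a leucine tRNA gene on chromosome III (90859 to 90972), under one of 2425 bp with a score of 95. These 4 peaks all touched a Ty ORF. Untouched genes at similar distances included YNCP0019W (chromosome XVI, 810676 to 810749; Ty ORF at 406 bp), with 90% of the upstream and 84.8% of the downstream flank inside peaks and none of the gene. They also included YNCM0020W (436 bp; upstream 62.4%, downstream 0%), YNCE0025C (480 bp; upstream 60%, downstream 94.8%) and IMT1, a gene for initiator methionine tRNA (468 bp), with 0% on both sides. A Ty ORF at 406 to 524 bp in the reference assembly was thus found with and without cover of the tRNA gene.

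**Figure D3:**
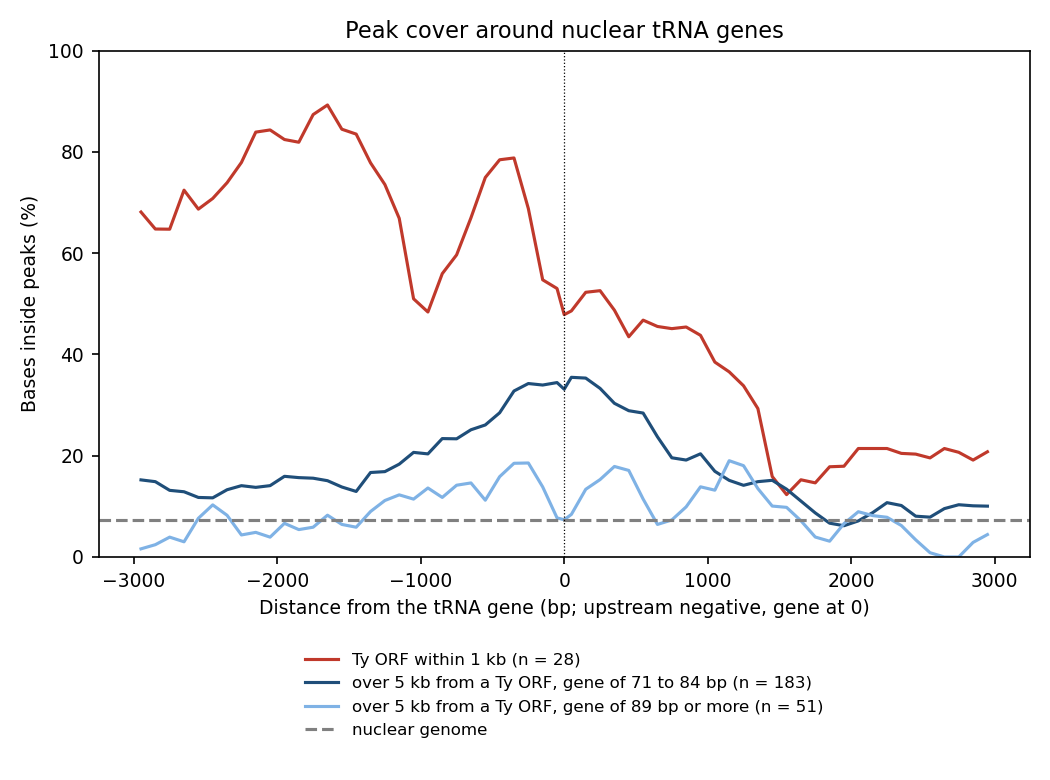
Percent of bases inside peaks (vertical axis) by distance from the tRNA gene in bp (horizontal axis, bins of 100 bp, upstream negative, the gene itself at 0), for 28 genes with a Ty ORF within 1 kb and for genes more than 5 kb away split by gene length; the dashed line is the nuclear genome at 7.37%. Cover is highest on the Ty side; it is 33.1% at the gene in the shorter genes and 7.36% in those of 89 bp or more.

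More than 5 kb from a Ty ORF, cover differed with the length of the tRNA gene. The length classes were chosen after these values were seen. Of 183 genes of 71 to 84 bp there, 60 were covered (32.8%, interval 26.0 to 40.1), and of 51 genes of 89 to 133 bp, 4 were (7.84%, interval 2.18 to 18.9). For windows of 101 bp, the median length of the longer genes, the share more than 5 kb from a Ty ORF was 5.64%, so the longer genes lay near that background. In this yeast most tRNA genes of this length owe it to an intron, but the gene table gives no introns or anticodons, so intron and length cannot be told apart here. The flanks differed too, with 32.7% of bases inside peaks for the shorter and 14.7% for the longer genes. Within 100 bp upstream the values were 34.5% and 7.73%.

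Over all distances, 74 of 214 shorter genes (34.6%) and 8 of 61 longer genes (13.1%) were covered. Of those 8, 4 had a Ty ORF within 1 kb. They were SUF7, SUP53, YNCD0017W and YNCD0023C (chromosome IV, 1095370 to 1095461; score 95). The other 4 were YNCH0009C (chromosome VIII, 237848 to 237939; score 52), SUP7 (chromosome X, 354244 to 354332; score 32), YNCK0021W (chromosome XI, 578965 to 579060; score 27) and SUF11 (chromosome XV, 464450 to 464551; 101 of 102 bp inside, score 38).

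**Figure D4:**
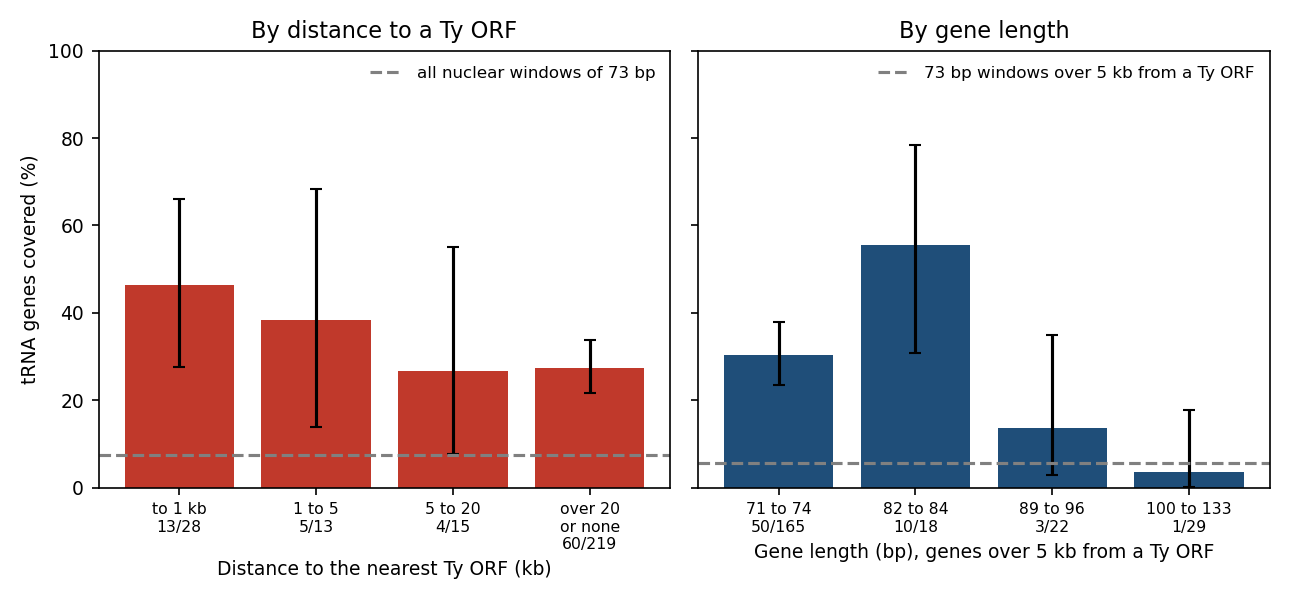
Share of tRNA genes covered (percent; bars, with exact 95% intervals and covered/all counts under each bar) by distance to the nearest Ty ORF for all 275 genes, left, and by gene length for the 234 genes more than 5 kb from a Ty ORF, right; dashed lines are the shares of 73 bp windows, 7.37% and 5.64%. Genes of 89 bp or more sit at 3 of 22 and 1 of 29, against 50 of 165 at 71 to 74 bp and 10 of 18 at 82 to 84 bp.

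The class of 82 bp had the highest share among lengths with at least 5 genes, and was also singled out after its values were seen. Of its 14 genes, 10 were covered (71.4%, interval 41.9 to 91.6). The class held SUP16, SUP17 and SUP19, which encode serine tRNAs, and none of these was touched. The other 11, which have no symbol in the table, lay on 9 chromosomes, and 10 of them were covered, with scores from 22 to 166 and a median of 48.5. Of those 10, 3 had a Ty ORF within 1 kb and 7 lay more than 5 kb from one. The strongest of these 7 was YNCJ0023C on chromosome X (524012 to 524093), under a peak of 3825 bp with a score of 118 that also touched TAH11, ANB1, CYC1 and UTR1. YNCG0028W (chromosome VII, 700675 to 700756) had a score of 73 and YNCM0009C (chromosome XIII, 259158 to 259239) was 82.9% inside a peak with a score of 50. YNCH0004C (chromosome VIII, 133026 to 133107) scored 46 and YNCL0002C (chromosome XII, 167944 to 168025) 43. The lowest were YNCE0005W (chromosome V, 86604 to 86685), with a score of 25 and a peak of 275 bp, and YNCA0006C (chromosome I, 182522 to 182603), with a score of 22 and a peak of 300 bp. YNCD0006W (chromosome IV, 437772 to 437853) was the member without cover, with 75.6% of its downstream flank inside peaks. Whether these genes are copies that share reads is not known from the files used here.

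The gene table names no amino acid, so families were read from the symbols of the 47 genes that have one. Of these, 10 were covered (21.3%, interval 10.7 to 35.7), against 72 of the 228 genes known by systematic name alone (31.6%, interval 25.6 to 38.0). Within families, covered and uncovered copies stood side by side. Of the 8 tyrosine tRNA genes, known as sites of nonsense suppressor mutations, SUP7 was covered and SUP2, SUP3, SUP4, SUP5, SUP6, SUP8 and SUP11 were untouched. These 8 are all the genes of 89 bp. Of the 4 genes for initiator methionine tRNA, which starts translation, IMT3 was covered (chromosome X, 517813 to 517884; score 26) and IMT1, IMT2 and IMT4 were not touched. Of the 5 for elongator methionine tRNA, EMT3 was covered (chromosome X, 422937 to 423009; score 32) and EMT1, EMT2, EMT4 and EMT5 were not touched.

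Of 9 glycine genes, 2 were covered: SUF5, beside a Ty ORF (chromosome XV, 594354 to 594425; score 82), and SUF23 (chromosome X, 531828 to 531898; score 26). Of 7 proline genes, SUF7 and SUF11 were covered. Of 4 leucine genes, SUP53 was covered. Of 4 serine genes none was, which allows a share of up to 60.2% at this number. TGA1, an alanine tRNA gene (chromosome I, 166267 to 166339; score 154), and SOE1, a glutamate tRNA gene (chromosome VII, 328583 to 328654; score 52), lay wholly inside peaks. TRT2, TRR4, HSX1 and CDC65, genes for threonine, arginine, arginine and glutamine tRNAs, were not touched. These families hold 1 to 9 genes each, so their shares do not order them.

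Chromosome X held the most covered genes. Of its 24 tRNA genes, 15 were covered (62.5%, interval 40.6 to 81.2), against 67 of 251 on the other chromosomes (26.7%, interval 21.3 to 32.6). On chromosome XVI, 1 of 17 was (5.88%, interval 0.149 to 28.7). With 200 bp around each summit in place of whole peaks, 8 of 24 on chromosome X and 30 of 251 elsewhere were touched. Without genes that have another tRNA gene within 500 bp, 11 of 20 and 64 of 243 were covered. None of the 24 on chromosome X lay nearer than 34.2 kb to any of the 75 Ty ORFs taken here. Another Ty ORF on that chromosome would be missed if its exact length does not recur. The distances therefore do not show that the 24 genes are clear of Ty elements. Among genes more than 5 kb from those 75 Ty ORFs, 15 of 24 on chromosome X and 49 of 210 elsewhere (23.3%) were covered. Chromosome X as a whole had little more cover than the genome: 8.85% of its bases lay inside peaks, and 7.13% of those more than 1 kb from a tRNA gene. Of its 365 protein-coding genes 5.75% were covered, and 8.84% of its 73 bp windows were. On chromosome XVI, 6.01% of windows and 3.38% of protein-coding genes were covered. The chromosomes were set apart after their values were seen.

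The 15 genes lay under 13 peaks with scores from 26 to 162 and a median of 52. YNCJ0002C (115939 to 116010) had the highest score, 162, with both flanks wholly inside the peak and its summit 23.5 bp from the middle of the gene. That peak also touched the protein-coding gene JJJ2. YNCJ0005C (197313 to 197385) scored 73, with 63% of the upstream and 60% of the downstream flank inside peaks. YNCJ0015W (378360 to 378433) was 89.2% inside a peak scoring 52. All 4 covered genes of the chromosome that have a symbol, SUP7, EMT3, IMT3 and SUF23, had scores of 26 or 32. The 4 other genes with a symbol there, SUP4, SUP51, EMT5 and HSX1, were not touched. Of the 20 shorter genes on the chromosome 14 were covered, and of the 4 of 89 bp or more, 1.

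**Figure D5:**
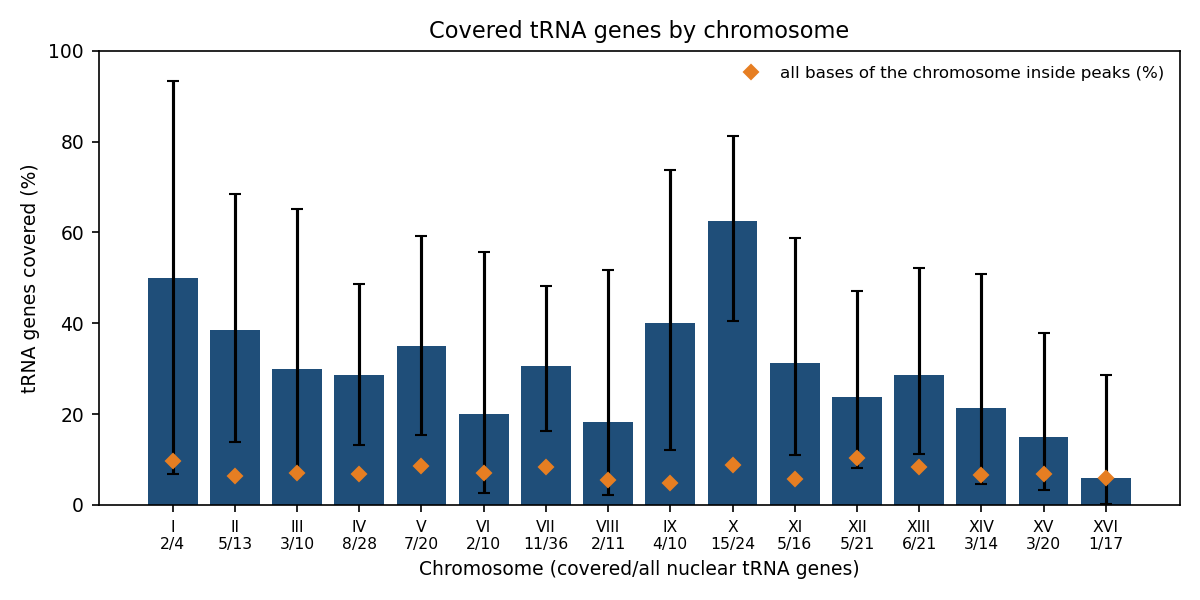
Share of tRNA genes covered on each nuclear chromosome (percent; bars, with exact 95% intervals and covered/all counts), with diamonds for the percent of all bases of the chromosome inside peaks. Chromosome X stands at 62.5% and chromosome XVI at 5.88%, while their bases are 8.85% and 6.01% inside peaks.

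Neighbouring tRNA genes shared peaks. There were 4 pairs of genes 10 bp apart, an arrangement known in yeast for tRNA genes transcribed together. In 3 of the pairs both genes lay wholly inside 1 peak, and no peak touched more than 2 tRNA genes. YNCJ0011W and YNCJ0012W (chromosome X, 355374 to 355527) lay under a peak with a score of 89, YNCJ0013C and YNCJ0014C (chromosome X, 374424 to 374577) under one of 2925 bp with a score of 65, and YNCB0015W and YNCB0016W (chromosome II, 405878 to 406031) under one with a score of 29. In the fourth pair, YNCD0011W and YNCD0012W on chromosome IV, neither gene was touched, though 98.8% and 82.4% of their upstream flanks lay inside peaks. Of the 12 genes with another tRNA gene within 500 bp, 7 were covered, against 75 of the other 263 (28.5%). The direction turned when each peak was reduced to 200 bp around its summit, with 1 of the 12 and 37 of the 263 touched. The pairs count the same peak more than once, so these 12 are fewer separate cases.

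Away from Ty ORFs, the 12 covered genes of highest score ran from 184 down to 80. In 4 of them a wider set of Ty ORFs, which adds single frames of Ty length, placed such an ORF within 5 kb. These were YNCD0020W (chromosome IV, 992832 to 992902; score 184), YNCL0035C (chromosome XII, 656934 to 657006; score 164), TGA1 and YNCN0008C (chromosome XIV, 519099 to 519169; score 95). Their scores are therefore not clear of Ty elements. YNCG0016C (chromosome VII, 401527 to 401598) and YNCJ0002C both scored 162. The peak of the former also touched ERV14, whose product sorts cargo into COPII vesicles, and that of the latter also touched JJJ2. YNCC0010C (chromosome III, 168301 to 168372) followed with 141, under a peak of 1300 bp that touched no protein-coding gene. YNCJ0023C scored 118, YNCJ0011W and YNCJ0012W 89, and YNCM0010W (chromosome XIII, 290801 to 290872) 80.

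YNCI0008C on chromosome IX (324303 to 324374) scored 114 under a peak of 475 bp at 324101 to 324575. It lies 197 bp from BAR1 (322342 to 324105), the pheromone protease gene that is deleted in this strain. The peak overlaps the annotated end of BAR1 by 5 bp and otherwise holds the tRNA gene, reaching 201 bp beyond it upstream and 202 bp downstream. Whether the deletion bears on this peak was not tested.

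Other genes read by RNA polymerase III gave mixed values. SCR1 (chromosome V, 441987 to 442508), which encodes the signal recognition particle RNA, lay, with both its flanks, under a peak scoring 130. The same peak is counted above for the tRNA gene YNCE0023W (438700 to 438773), with its summit 3776.5 bp from the middle of that gene. RPR1, the RNA of RNase P, SNR6, the U6 spliceosomal RNA, and SNR52, a snoRNA made by RNA polymerase III, had no peak base. Of the bases in their flanks, 0.900%, 12.1% and 0% lay inside peaks. Of the 5S rRNA genes, RDN5-3, RDN5-4, RDN5-5 and RDN5-6 were wholly inside peaks and RDN5-1 and RDN5-2 had none. Genes near a Ty ORF were not set apart here. The Ty ORF YLR157C-B (chromosome XII, 476333 to 481601) lies between RDN5-3 and RDN5-4, and YER138C (chromosome V, 443756 to 449024) lies past SCR1. The 5S genes are repeats whose reads cannot be assigned to 1 copy.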

How the data were processed

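The members, classes and lists were chosen with earlier results of these data known. Peaks of 1 immunoprecipitate were deposited in narrowPeak layout on the sacCer3 build. The tools named in the submitters' processing notes are MACS2 2.1.1.20160309 and SAMtools 1.7. Which aligner and threshold were used, how multi-mapping reads were handled and whether the input entered the calls: not given in the sources used here. Per the labels, DNA was cut with restriction enzymes and amplified across the whole genome, so a peak can take in a whole restriction fragment and amplification can change its height. The deposited score is the authors' value with no stated scale, and the deposited other columns (positions, summit offset) are in bp. The fold, p and q columns, as deposited, hold 0 throughout and were not used. All 1723 starts are multiples of 25 bp and no nuclear peak is under 200 bp, which sets the resolution beside genes of 73 bp. 

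Overlaps were computed in Python 3.11.15 (pandas 2.3.3, SciPy 1.17.1) over 12061503 nuclear bp, with each chromosome taken to its last gene or peak. The code was checked against base-by-base counts on simulated intervals. Coordinates are 1-based. Of the 75 Ty ORFs, none comes from the pair of long unnamed ORFs at chromosome ends that holds no shorter frame. The planned classes by anticodon copy number and intron-bearing family were replaced by symbols and gene length, since the table names no anticodon. Genes were named by rule: the 12 covered genes of highest score more than 5 kb from a Ty ORF, 4 covered and 4 untouched genes of those within 1 kb, 3 on each side of the 50% threshold, the peaks with most tRNA genes, and the other RNA polymerase III genes. All genes with a symbol were added, and those of the 82 bp class, of the longer class and of chromosome X were named after their values were seen.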

Additional observations from a re-analysis of the deposited data

How the results depend on the processing

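For the 10 results recomputed, 70 values came from the alternatives. With 200 bp around each summit and any overlap in place of whole peaks, the share of tRNA genes covered or touched fell to 13.8% (3.80% of 73 bp windows), the bases of the genes inside peaks to 10.7% and those of the flanks to 11.2%, since each peak is shortened. The same alternative turned the difference between genes with another tRNA gene within 500 bp and the others from 29.8 to -5.74 percentage points (1 of 12 against 37 of 263). Without peaks that touch a Ty ORF, the difference between genes within 1 kb of a Ty ORF and those over 5 kb away went from 19.1 to -5.92 points. This filter removes peaks beside Ty ORFs, so it could hardly move the difference the other way. With 200 bp around each summit the difference was 1.04 points (4 of 28 against 31 of 234). All other values moved by less than the counting error of their result. The share covered ran from 26.5% to 33.1% under them, and was 26.7% without chromosome X, an alternative chosen after seeing the data. For the difference by Ty distance the counting error was 20.7 points, more than the 19.1 points found. Its fall to 1.04 points therefore did not count as a move, and this criterion cannot show that the difference is stable. The difference between genes of 89 bp or more and shorter genes ran from -24.5 to -9.33 points over all its alternatives, and that between chromosome X and the others from 21.4 to 38.6. The upstream minus downstream difference ran from -3.16 to 1.68 points for all genes and from -0.779 to 1.43 for those over 5 kb from a Ty ORF, so it had no settled sign. With the wider Ty set, 17 of 34 genes within 1 kb and 59 of 227 over 5 kb away were covered. The alternatives by copy number and intron-bearing family were not run. No paired analysis was possible because the values come from 1 peak list of 1 immunoprecipitate, and the groups share only replicate number 1. Read depth is unknown, so it is not known which uncovered genes had too few reads to give a peak.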

Other observations

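The distance to the nearest protein-coding gene varied among the 234 tRNA genes more than 5 kb from a Ty ORF, and the covered share did not follow it in 1 direction. Of 8 genes within 100 bp of a protein-coding gene 4 were covered, of 103 at 101 to 250 bp 26 were (25.2%), of 64 at 251 to 500 bp 20 were (31.3%), and of 59 further away 14 were (23.7%). The nearest protein-coding gene lay on the downstream side of 193 of the 234 tRNA genes. Covered genes made up 27.5% of these 193 and 26.8% of the 41 whose nearest protein-coding gene lay upstream. Among exact lengths of the short class, 33 of 82 genes of 72 bp were covered (40.2%), 13 of 54 of 73 bp (24.1%), 11 of 39 of 74 bp (28.2%) and 4 of 17 of 71 bp (23.5%), with intervals that overlap.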
